A study of Mus musculus with 8 samples.

Results

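The genes described here are those whose RNA moved the same way under dimethyl itaconate (DI) in wild-type and in Nrf2 knockout macrophages. All 8 libraries of the series entered 1 model with a term for genotype and a term for treatment. The treatment term is thus 1 DI effect fitted to both genotypes (4 DI libraries against 4 untreated libraries). It is called the average effect here, but it can lie nearer the effect of 1 genotype and is not their plain mean. A gene is called shared where that average effect had a Benjamini-Hochberg adjusted p under 0.05 in edgeR's quasi-likelihood test, the effect had the same sign in each genotype, and within each genotype both DI libraries lay on the same side of both untreated libraries. Of 22165 genes in the deposited table, 11079 had enough counts to be tested, and 259 were shared higher and 465 shared lower.

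The cells were macrophages grown from the bone marrow of C57BL/6 mice over 7 days with M-CSF, the growth factor that drives marrow precursors to become macrophages. Wild-type cells and cells of Nrf2-/- mice, a germline knockout line bought from the Jackson Laboratory, were left untreated (Ctrl) or exposed to 250 µM DI for 12 hours, with 2 libraries in each of the 4 groups. Whether the 2 libraries of a group are separate mice or cultures is not stated in the labels, so the p-values measure only how far these libraries spread, and that spread may be technical. The labels name no lipopolysaccharide or other stimulus.

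Itaconate is made in activated macrophages by the enzyme Acod1, and DI is a membrane-permeable ester of it that is more electrophilic than itaconate. Electrophiles modify cysteines, among them those of Keap1, the adaptor that keeps the transcription factor NRF2 (gene Nfe2l2) at a low level. When NRF2 accumulates, it binds antioxidant response elements and raises genes of glutathione and thioredoxin metabolism. Cells under electrophile stress are also known to use the heat shock response and the ATF4-driven integrated stress response, neither of which needs NRF2, and DI is known for lowering inflammatory gene induction through IκBζ (gene Nfkbiz).

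The libraries held 5554288 to 15680671 counts each and detected 12418 to 13481 genes. Nfe2l2, the targeted gene (minus strand of chr2:75675513-75704641, mm10), had 230.3 and 454 CPM (counts scaled to the library's normalised total) in untreated and 299 and 416 CPM in DI-treated wild-type libraries. Its level was lower but not absent in the knockout, at 40.2 and 52.97 CPM untreated and 67.7 and 88.1 CPM with DI, and a count per gene cannot tell whether those reads come from the part removed in this line. All 8 macrophage markers fixed for the check were detected in every library, with a summed level of 4618 to 5629 CPM untreated and 4041 to 4930 CPM with DI. Dendritic cell markers summed to 4.88 to 12.2 CPM, lymphocyte markers to 0.35 to 2.33 CPM and erythroid markers to at most 0.70 CPM, all of it from Hba-a1, with Alas2, Hbb-bs and Hbb-bt at 0 in every library. Stromal markers summed to 88.2 to 129.7 CPM in wild type and 44.1 to 48.5 CPM in the knockout. Neutrophil markers summed to 223 to 349 CPM, and none of the 6 tested was called. The share of counts in the top 10 genes was 13.2% to 13.3% in DI-treated wild-type libraries and 7.68% to 9.32% elsewhere. Because the libraries are bulk RNA, fewer cells of a type and less RNA per cell cannot be told apart.

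Across all 11079 tested genes, the average DI effect was called for 742 (6.7%), higher for 276 genes (2.49%) and lower for 466 genes (4.21%). The rule of matching direction kept 259 of the higher (2.34% of tested genes) and 465 of the lower (4.2%). The 17 higher genes left out included the glutathione transferases Gsta3 and Gsta4, Osgin1 and Ptger2, and the 1 lower gene was Spc25. With no test, DI libraries lay above both untreated libraries in each genotype for 9.06% of tested genes and below them for 11% of tested genes. The number of shared genes depended on single libraries. Without untreated wild-type replicate 1, 118 shared genes were higher and 245 lower. Without DI-treated wild-type replicate 2, the counts were 147 and 209. The lower count was also 274 without untreated knockout replicate 1 and 308 without DI-treated knockout replicate 2. In every fit that left out 1 library, 87 of the higher and 176 of the lower genes stayed shared.

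For the shared higher genes the median log2 fold change was 1.12 for the average effect, 1.23 in wild type and 1.06 in the knockout. Shared lower genes had medians of -1.20, -1.25 and -1.08 in the same order. The corresponding medians over all tested genes were 0.01, -0.02 and 0.00. Shared genes were chosen by these same effects, so the rule itself sets their medians apart from those of all genes and may enlarge them. The effect was over 1 log2 unit in both genotypes for 97 of the higher and 190 of the lower genes. Just inside the threshold were Prep (adjusted p = 0.0499) and Ppid (adjusted p = 0.04998), and just outside it Fam20c and C1qtnf1 (adjusted p = 0.0501 each).

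**Figure D1:**
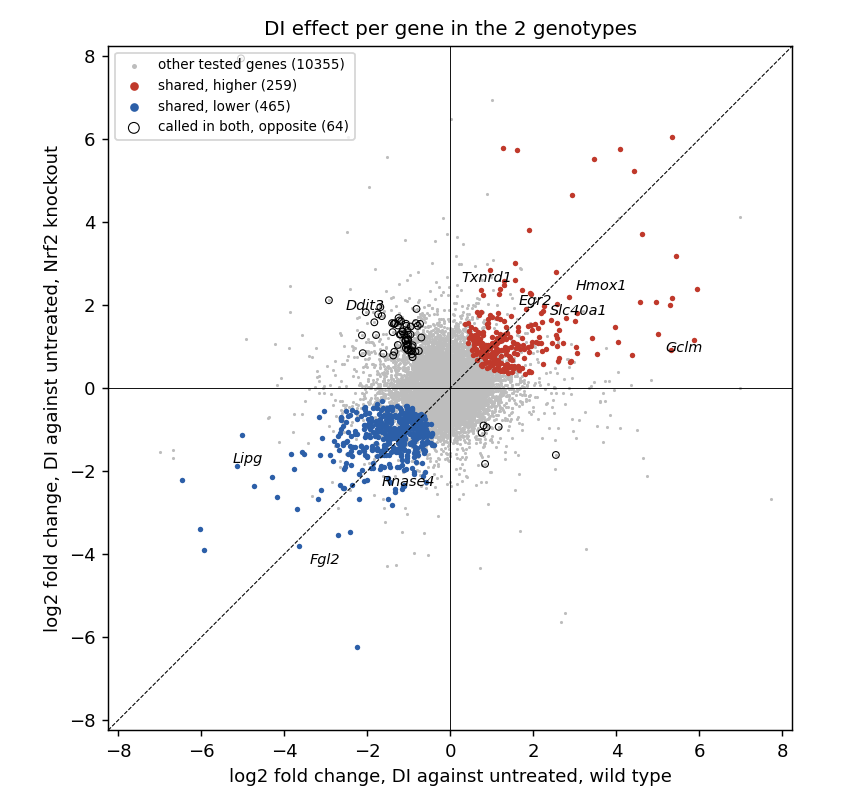
DI effect in wild type (x axis, log2 fold change) against DI effect in the knockout (y axis, log2 fold change) for every tested gene, each axis from 2 DI against 2 untreated libraries. The 259 shared higher genes (red) and 465 shared lower genes (blue) lie toward the upper right and the lower left, 64 genes called in opposite directions are open circles, and the dashed line marks equal effects.

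When each genotype was tested on its own, DI raised 721 genes (6.51%) and lowered 962 (8.68%) in wild type, and raised 497 (4.49%) and lowered 443 (4%) in the knockout. These comparisons use different libraries and share no controls. Of the genes lowered in wild type, 173 (18.0%) were also called lower in the knockout, where 4% of all tested genes were. Read the other way, those 173 were 39.1% of the genes lowered in the knockout, where the wild-type background was 8.68%. For higher genes, 76 were called in both, which is 10.54% of the wild-type list (knockout background 4.49%) and 15.3% of the knockout list (wild-type background 6.51%). These genes made up 0.686% (higher) and 1.56% (lower) of tested genes, and all of them met the shared rule. The effect had the same sign in the other genotype for 63.1% of genes raised and 63.4% of genes lowered in wild type. For genes raised and lowered in the knockout these shares were 50.9% and 81.9%. The median effect over all tested genes was -0.02 in wild type and 0.00 in the knockout, so either sign was about equally common. The share of 50.9% is thus close to that of all genes. Of the 497 genes raised in the knockout, 58 (11.67%) were called lower in wild type, where 8.68% of all tested genes were. The counts called in both genotypes were 9 higher and 42 lower without untreated knockout replicate 1, 12 and 44 without untreated knockout replicate 2, and 24 and 69 without DI-treated knockout replicate 1. They were 46 and 113 without untreated wild-type replicate 1 and 43 and 113 without untreated wild-type replicate 2.

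The shared genes with the largest rise in both genotypes included genes of haem and iron handling, thioredoxin and glutathione metabolism, metal binding and transcription. Hmox1 (ENSMUSG00000005413, haem oxygenase 1, which breaks down haem, plus strand of chr8:75093621-75100589, mm10) had 41.1 and 29.8 CPM in untreated and 275 and 238 CPM in DI-treated wild-type libraries. In the knockout it went from 15.4 and 16.4 CPM to 63.5 and 81.9 CPM. All 4 DI libraries exceeded all untreated libraries, although the untreated knockout libraries were lower than the wild-type ones. The average log2 fold change was 2.53 ± 0.21 (SE), adjusted p = 0.000177, with 2.86 in wild type and 2.19 in the knockout. The difference between the genotypes (knockout minus wild type) was -0.67 (95% interval -1.41 to 0.08) and did not pass the test (adjusted p = 0.240).

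Txnrd1, the cytosolic thioredoxin reductase (chr10:82833951-82897712), had 106 and 257 CPM in untreated and 675 and 688 CPM in DI-treated wild-type libraries. Knockout libraries had 27.3 and 30.6 CPM untreated and 135 and 151 CPM with DI. The DI-treated knockout libraries thus stayed below untreated wild-type replicate 2, while the log2 fold changes were 1.91 in wild type and 2.30 in the knockout (average 2.10 ± 0.26 (SE), adjusted p = 0.00132). Slc40a1, the iron exporter ferroportin, had lower levels in the knockout throughout. It had 109 and 172 CPM untreated and 643 and 666 CPM with DI in wild type. In the knockout its levels were 7.70 and 13.2 CPM and 37.3 and 26.4 CPM, an average log2 fold change of 1.92 ± 0.25 (SE), adjusted p = 0.00171. DI did not bring either gene in the knockout to the level of DI-treated wild-type cells.

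Clec4d, a C-type lectin receptor of myeloid cells, went from 303 and 291 CPM to 1254 and 1197 CPM in wild type and from 69.1 and 75.2 CPM to 251 and 167 CPM in the knockout (average log2 fold change 1.79 ± 0.20 (SE), adjusted p = 0.000942). Tnfaip2, a gene induced by tumour necrosis factor, had 308 and 246 CPM untreated and 747 and 660.1 CPM with DI in wild type. Its knockout levels were 37.8 and 46.8 CPM and 122.7 and 112 CPM. The Tnfaip2 log2 fold changes of 1.34 and 1.47 differed by 0.13 (95% interval -0.56 to 0.82), an interval within 1 log2 unit of equality. The genotype term of the model, which compares knockout with wild type, was -4.06 log2 units for Slc40a1, -2.65 for Tnfaip2, -2.45 for Txnrd1 and -2.30 for Clec4d. That term was called for 61 of the 259 shared higher genes, 60 of them lower in the knockout. Among the 465 shared lower genes it was called for 40, of which 38 were higher in the knockout. Of all tested genes, 3.02% had the genotype term called.

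Mt2, a metallothionein that binds zinc and copper, rose by 2.27 log2 units on average (adjusted p = 0.00154), with 6.73 and 3.75 CPM untreated and 34.6 and 37.0 CPM with DI in wild type and 4.02 and 5.86 CPM and 13.4 and 18.9 CPM in the knockout. Lrp8, a lipoprotein and reelin receptor, rose by 2.52 (adjusted p = 0.00132, 3.05 in wild type and 1.81 in the knockout). Maff, a small Maf protein that pairs with NRF2 and related factors, rose by 1.86 (adjusted p = 0.00132), with 1.82 and 1.92 in the 2 genotypes. Egr2, an immediate early zinc finger factor, rose by 1.59 (adjusted p = 0.00858), Gdf15, a stress-induced secreted factor, by 1.68 (adjusted p = 0.00154), and Lars2, the mitochondrial leucyl-tRNA synthetase, by 1.73 (adjusted p = 0.000960). The last of the 12 was Gclm, the regulatory partner of the enzyme that starts glutathione synthesis. Its effect differed between genotypes and is given with the NRF2 targets. In 11 of these 12 genes the call stayed in every fit without 1 library. Gclm lost it in 2 fits, with a highest adjusted p of 0.0975 without untreated wild-type replicate 1.

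**Figure D2:**
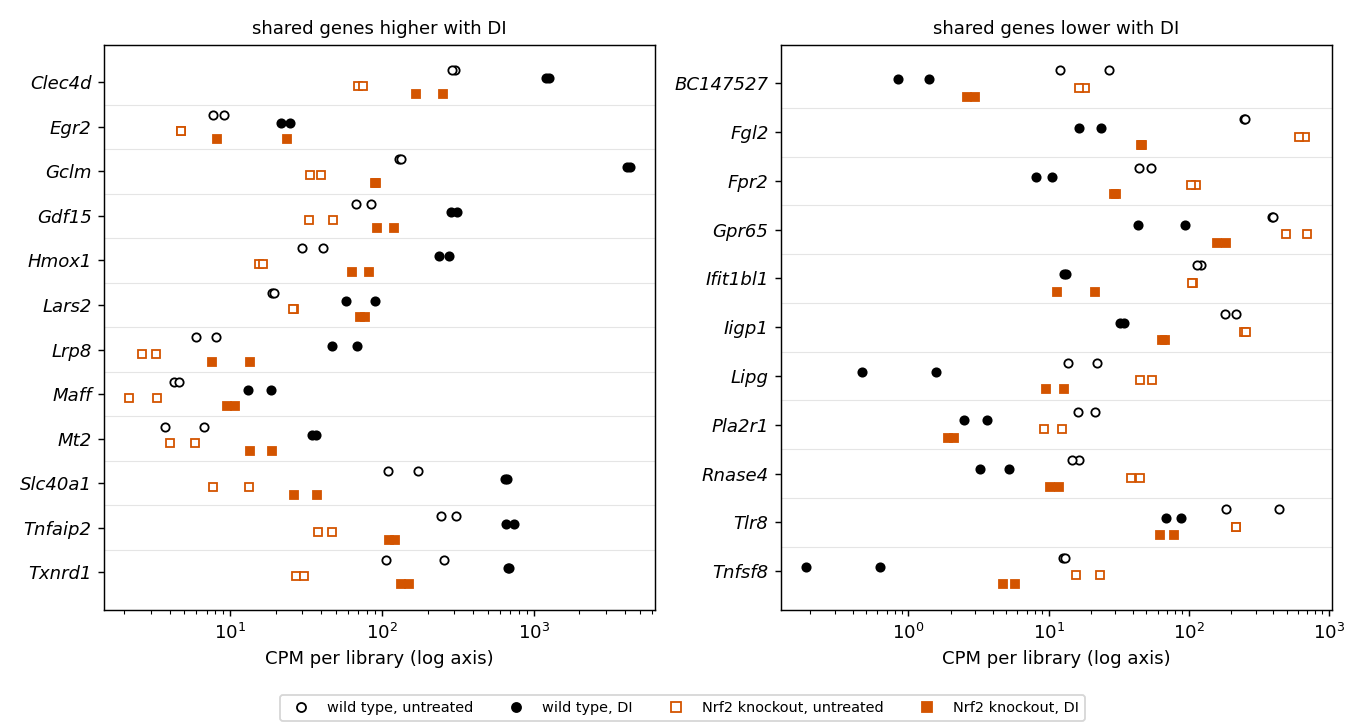
Level in each library (CPM, log axis) of 12 shared higher and 11 shared lower genes with the largest effects in both genotypes. Each point is 1 library, grouped as untreated and DI-treated wild type and untreated and DI-treated knockout. By the shared rule, both DI points lie on 1 side of both untreated points within each genotype in every panel.

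The largest shared losses included genes of immune sensing, chemotaxis and interferon response. Fgl2, a fibrinogen-like protein of macrophages and T cells (chr5:21372642-21378374), had 249.6 and 253 CPM in untreated and 23.7 and 16.6 CPM in DI-treated wild-type libraries. Knockout libraries went from 672 and 611 CPM to 45.5 and 46.2 CPM. The groups were far apart in both genotypes, and the average log2 fold change was -3.73 ± 0.19 (SE), adjusted p = 3.83e-06, a 13.2-fold drop. Wild type (-3.65) and knockout (-3.81) differed by -0.16 (95% interval -0.86 to 0.54).

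Rnase4, a secreted ribonuclease whose locus also holds the related Ang gene, had a log2 fold change of -1.92 in each genotype (average -1.92 ± 0.20 (SE), adjusted p = 0.000592). Its levels were 16.4 and 14.8 CPM and 5.18 and 3.26 CPM in untreated and DI-treated wild type, and 38.8 and 44.8 CPM and 10.2 and 11.9 CPM in the knockout. The difference between genotypes was 0.00 (95% interval -0.81 to 0.81). For Fgl2 and Rnase4 the interval of the difference lay within 1 log2 unit of equality.

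Fpr2, a formyl peptide receptor, had log2 fold changes of -2.38 in wild type and -1.86 in the knockout, from 44.5 and 54.0 CPM to 8.17 and 10.53 CPM and from 113 and 104 CPM to 29.6 and 30.1 CPM (average adjusted p = 0.000302). The phospholipase A2 receptor Pla2r1 had log2 fold changes of -2.57 and -2.41 (adjusted p = 0.000310). Gpr65, a proton-sensing receptor, had -2.52 and -1.79 (adjusted p = 0.00132). Tlr8, an endosomal receptor for RNA, had -2.00 and -1.63 (adjusted p = 0.00274). BC147527, which has near-identical neighbours that could divide its reads, had -4.18 and -2.62 (adjusted p = 0.000960).

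Tnfsf8, the ligand of the receptor CD30, and Lipg, a secreted lipase, were lower in both genotypes but by unequal amounts. Tnfsf8 went from 12.8 and 13.1 CPM to 0.628 and 0.186 CPM in wild type and from 23.3 and 15.74 CPM to 5.76 and 4.76 CPM in the knockout. Lipg went from 13.8 and 22.2 CPM to 1.57 and 0.466 CPM and from 54.9 and 45.2 CPM to 12.9 and 9.63 CPM. On the log2 scale Tnfsf8 had -5.13 in wild type and -1.88 in the knockout (difference 3.25, adjusted p = 0.00885), and Lipg -4.30 and -2.15 (difference 2.15, adjusted p = 0.0413). The 12 largest shared losses stayed called in every fit without 1 library.

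**Figure D3:**
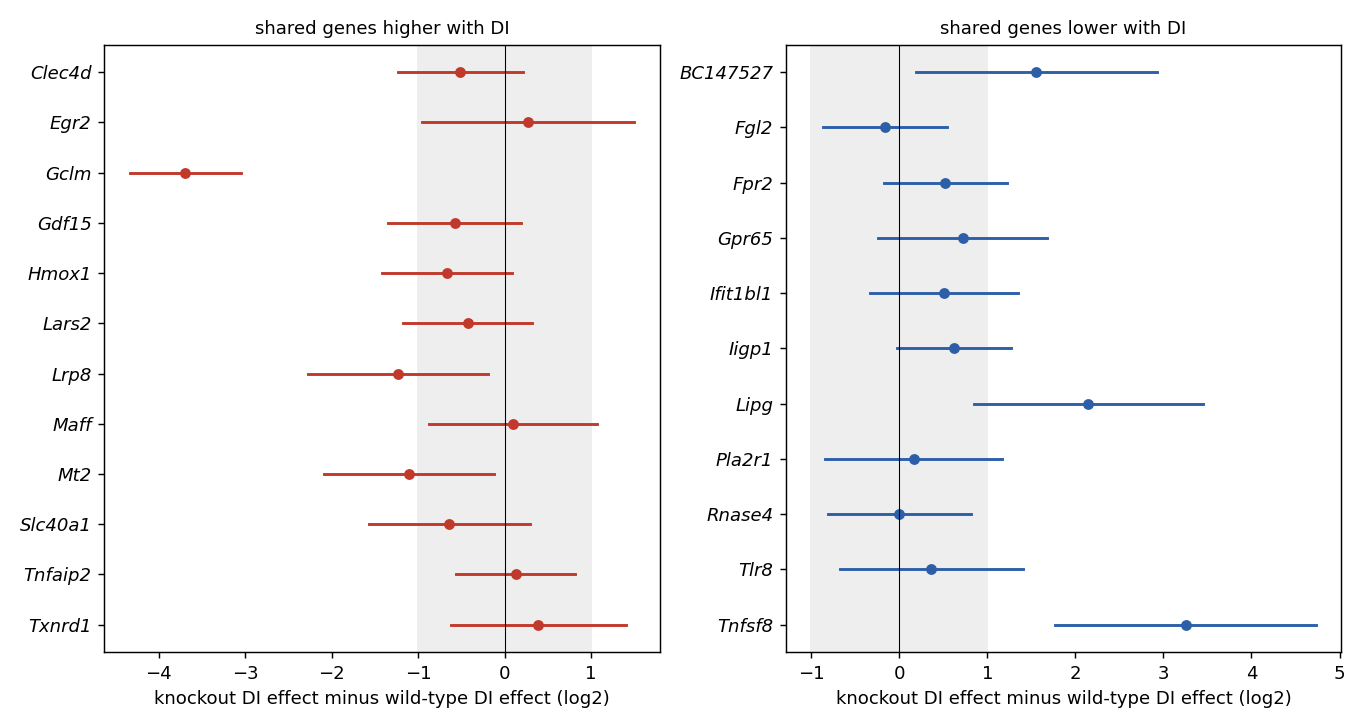
Difference of the DI effect between genotypes (knockout minus wild type, log2 units, x axis) with its 95% interval for the genes shown by library. The grey band marks 1 log2 unit on either side of equality. The intervals of Fgl2, Rnase4 and Tnfaip2 lie within it, while Gclm (-3.69), Tnfsf8 (3.25) and Lipg (2.15) lie away from 0.

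Equality of the effect was tested for each gene as the interaction of genotype and treatment. It was called for 836 of all tested genes (7.55%), and for 29 of the 259 shared higher and 30 of the 465 shared lower genes. Of these, 24 higher and 28 lower genes moved more in wild type, and 5 higher and 2 lower genes moved more in the knockout. A missed threshold does not show equality, so the interval was read as well: it lay within 1 log2 unit for 50 shared higher and 93 shared lower genes, against 15.2% of all tested genes. The additive model counts a difference between genotypes as spread, so the shared rule itself works against genes with unequal effects. The total of 59 fell to 16 without untreated wild-type replicate 2, 18 without untreated knockout replicate 1, 19 without untreated wild-type replicate 1, 21 and 23 without DI-treated wild-type replicates 2 and 1, and 28 without untreated knockout replicate 2.

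Gene lists for this tissue and treatment were read by counting calls of the average effect in each list against the background of 2.49% higher and 4.21% lower. Since the lists were drawn up with earlier results of these data known, they carry no test.

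**Figure D4:**
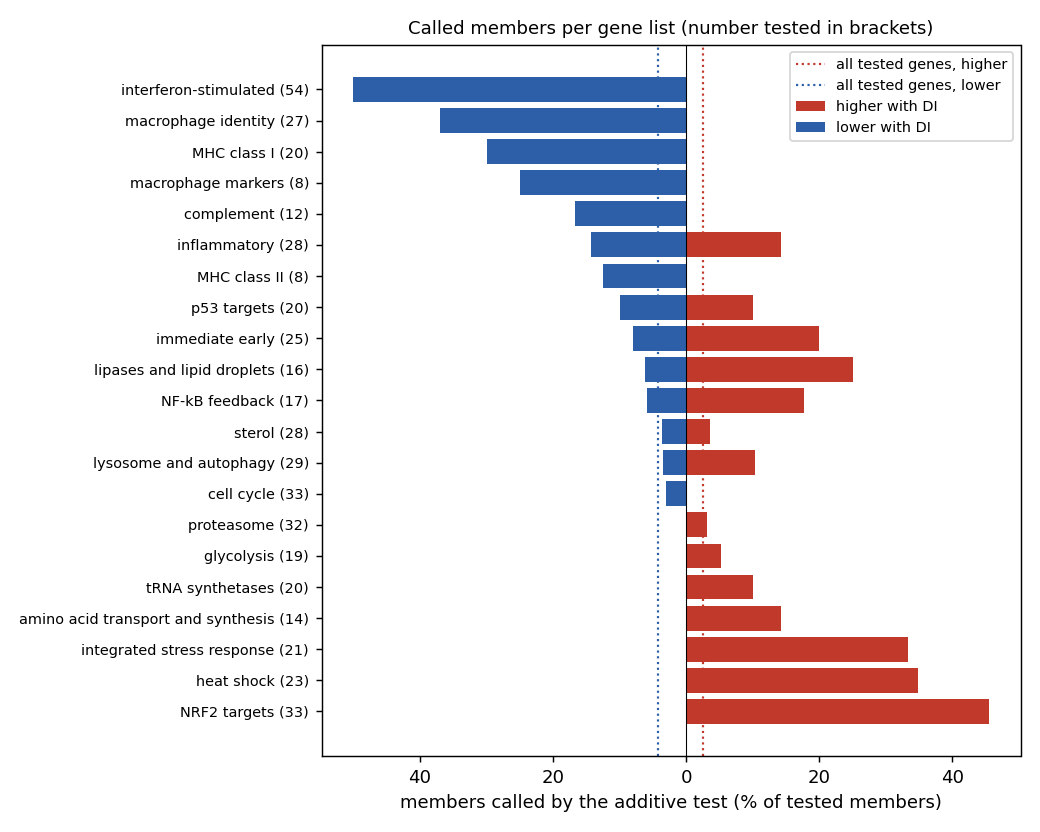
Percent of the tested members of each gene list that were called higher (red) or lower (blue) for the average DI effect, with the number of tested members beside each list. Dotted lines mark the share of all tested genes, 2.49% higher and 4.21% lower. Heat shock, integrated stress response and NRF2 target lists reach furthest on the higher side, and interferon-stimulated and macrophage identity lists on the lower side.

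NRF2 targets were the list with most higher calls, although the cells of 1 genotype carry the Nrf2 knockout. Of 33 tested members 15 were called higher on average and none lower, and 12 of the 15 were shared. The list was unequal between the genotypes, with a median log2 fold change of 2.56 in wild type and 0.39 in the knockout (1.70 for the average effect). Tested on their own, 29 members were higher in wild type, 9 were higher and 1 lower in the knockout, and 20 of the 33 had a called interaction. Abcc1, an exporter of glutathione conjugates, had log2 fold changes of 2.56 in wild type and 1.22 in the knockout (average 1.91 ± 0.32 (SE), adjusted p = 0.00697). Gsr, which reduces oxidised glutathione, rose by 3.42 and 1.21, and the difference of -2.21 (95% interval -3.01 to -1.41, adjusted p = 0.00569) was called. Gclm rose far more in wild type, from 129.7 and 134 CPM to 4139.8 and 4286 CPM, than in the knockout, from 33.4 and 39.9 CPM to 91.4 and 90.2 CPM. Its log2 fold changes of 5.0 and 1.30 differed by -3.69 (95% interval -4.34 to -3.05, adjusted p = 0.000220). That both knockout DI libraries exceeded both untreated knockout libraries is required by the shared rule. The list count was 8 without untreated wild-type replicate 1 and 9 without untreated wild-type replicate 2.

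Nqo1, a quinone reductase and a common readout of NRF2, was at 0 counts in both untreated knockout libraries and at 16 counts in all in the DI-treated ones. Against a floor of 3 counts over the untreated knockout group, its level was at least 4.14-fold higher with DI in the knockout. In wild type it went from 2.45 and 2.26 CPM to 85.1 and 106 CPM. The cystine transporter subunit Slc7a11 rose by 4.13 on average (4.96 in wild type and 2.08 in the knockout), and malic enzyme Me1 by 2.59 (2.54 and 2.79).

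Promoter sequence was read from RefSeq (GRCm38.p6), which held a start site for 8802 of the 11079 tested genes, in the window from 250 bases before to 50 bases after the start and on both strands. The antioxidant response element core, searched as TGACNNNGC, occurred in 17.0% of all these promoters, in 41 of 201 shared higher promoters (20.4%) and in 4 of 8 shared NRF2 targets. Overlaps with other motifs were kept. A pair of targets that rose in both genotypes, Txnrd1 with no called difference between them and Gclm with a called difference, are printed from 250 bases upstream to the start with that core in capitals, Txnrd1 on the plus strand of chr10:82858956-82859205 and Gclm on the plus strand of chr3:122245307-122245556.
Txnrd1: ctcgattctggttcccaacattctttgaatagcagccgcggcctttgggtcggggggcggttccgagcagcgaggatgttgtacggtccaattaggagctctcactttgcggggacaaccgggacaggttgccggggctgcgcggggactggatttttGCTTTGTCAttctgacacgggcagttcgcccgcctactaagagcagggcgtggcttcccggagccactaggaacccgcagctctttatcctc
Gclm: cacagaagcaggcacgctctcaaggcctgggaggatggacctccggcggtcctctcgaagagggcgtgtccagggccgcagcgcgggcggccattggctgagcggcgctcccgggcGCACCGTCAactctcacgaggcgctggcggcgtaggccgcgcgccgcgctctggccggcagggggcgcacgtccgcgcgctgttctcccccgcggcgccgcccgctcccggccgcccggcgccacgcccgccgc
In Txnrd1 the core spans bases -92 to -84 from the start and in Gclm bases -134 to -126. Both carry it as the reverse complement of the searched letters. The RefSeq start used for Txnrd1 lies inside the gene's annotated span. A match is a description of the letters and not a measured binding site.

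Heat shock genes, chaperones induced by HSF1 that refold damaged proteins, had 8 higher and 0 lower calls among 23 tested members, and all 8 were shared. The list's median log2 fold change was 0.69 on average, 0.44 in wild type and 1.19 in the knockout, against medians near 0 for all genes. Hsp90aa1, the inducible cytosolic HSP90, had 3246 and 3080.5 CPM in untreated and 6882 and 7013 CPM in DI-treated wild-type libraries. Its knockout levels of 3548 and 2723 CPM and 8361 and 5942 CPM were much like the wild-type ones, with log2 fold changes of 1.14 and 1.19 (average 1.16 ± 0.20 (SE), adjusted p = 0.00541). The co-chaperones Dnajb4 (1.23, adjusted p = 0.00431) and Dnajb1 (1.03, adjusted p = 0.00707) also rose in both genotypes.

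Tested in each genotype alone, 7 of the 23 heat shock members were higher in wild type and 18 in the knockout, with 0 lower in either. The interaction was called for 8 of the 23, against 7.55% of all tested genes. Several members rose more in the knockout. Hspa8, the constitutive HSC70, rose by 0.75 in wild type and 2.37 in the knockout, a difference of 1.62 (95% interval 0.86 to 2.38, adjusted p = 0.0183). Inducible HSP70 is encoded by Hspa1a and its near-identical neighbour Hspa1b, which could divide reads. Hspa1a had 2.10 and 2.33 CPM and 4.71 and 5.87 CPM in untreated and DI-treated wild type and 3.499 and 2.28 CPM and 132 and 181 CPM in the knockout. The knockout minus wild-type difference was 4.53 for Hspa1a (adjusted p = 0.000283) and 4.14 for Hspa1b (adjusted p = 0.000341), and the average log2 fold changes were 3.62 and 3.76. The small heat shock protein Hspb1 rose by 2.02 on average (1.57 and 2.60). The list count was 4 without untreated knockout replicate 1 and 5 without untreated knockout replicate 2, and Hspb1 was called in all 8 such fits, Hspa1b in 7 and Hspa1a in 5. The heat shock element, searched as 3 alternating GAA and TTC blocks set 2 bases apart, was in 0.579% of all RefSeq promoter windows, in 5 of 18 on the list and in 0 of the 5 shared members with a promoter in the reference.

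Integrated stress response genes, the targets of ATF4 that follow phosphorylation of the initiation factor eIF2α, had 7 higher and 0 lower calls among 21 tested members, all 7 shared. Tested in each genotype alone, 3 members were higher and 2 lower in wild type, and 7 were higher in the knockout. Only 2 were called higher in both genotypes, and 5 had a called interaction. Atf5, a bZIP factor translated under stress, went from 36.4 and 26.7 CPM to 83.1 and 63.8 CPM in wild type and from 22.2 and 19.5 CPM to 47.8 and 44.7 CPM in the knockout. Its log2 fold changes of 1.22 and 1.15 differed by -0.07 (95% interval -0.81 to 0.67). Ppp1r15a, which directs eIF2α dephosphorylation, rose by 0.78 in wild type and 2.25 in the knockout (difference 1.47, adjusted p = 0.0217). Gadd45a rose by 0.98 on average (adjusted p = 0.0302), Chac1, which degrades glutathione, by 1.25, and the pseudokinase Trib3 by 0.95. For these 3 genes the log2(CPM + 0.5) of DI libraries was also read against the untreated mean of the same genotype. Trib3 was at 0.46 and 0.22 in wild type and 1.45 and 1.58 in the knockout. Gadd45a was at 0.71 and 0.26 and at 1.63 and 1.28, and Chac1 at 0.47 and 1.13 and at 1.46 and 1.63.

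Atf3, a stress-induced bZIP repressor, had 315 and 362 CPM and 444 and 808 CPM in untreated and DI-treated wild type. Knockout libraries had 316 and 235 CPM and 586 and 456 CPM. Its log2 fold change was 0.90 ± 0.22 (SE), adjusted p = 0.0331, with 0.89 in wild type and 0.92 in the knockout, but the call was lost in 7 of 8 fits without 1 library (highest adjusted p = 0.115 without DI-treated wild-type replicate 2). The list count itself was 2 without untreated knockout replicate 1, 3 without untreated wild-type replicate 1 or DI-treated knockout replicate 2, and 4 without DI-treated wild-type replicate 2, untreated knockout replicate 2 or DI-treated knockout replicate 1. The core of the C/EBP-ATF response element, searched as TGATGNAAN, was in 2.95% of all promoters, in 10 of 201 shared higher promoters (4.98%) and in 3 of the 7 shared members. Atf3 is 1 of these 3 and is printed from 250 bases before its start on the minus strand of chr1:191183334-191183583, with the core in capitals at bases -111 to -103.
Atf3: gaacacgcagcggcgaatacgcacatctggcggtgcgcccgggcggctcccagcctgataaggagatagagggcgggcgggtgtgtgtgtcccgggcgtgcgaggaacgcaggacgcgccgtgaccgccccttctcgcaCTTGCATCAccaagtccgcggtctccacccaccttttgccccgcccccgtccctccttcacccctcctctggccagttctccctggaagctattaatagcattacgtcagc

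Lists near the stress genes had few calls of the average effect. Amino acid transport and synthesis had 2 higher of 14, Slc7a11 and Slc7a5 (the large neutral amino acid transporter, 0.95, adjusted p = 0.0218, with 1 left without DI-treated knockout replicate 2). Cytosolic tRNA synthetases had 2 of 20, Eprs and Farsa, and 0 or 1 in every fit without 1 library. Proteasome subunits had 1 of 32 (Psmd14, 0.79), which 4 such fits lost. Chaperones of the endoplasmic reticulum had 0 of 19, ribosomal proteins 0 of 34 and mitochondrial transcripts 0 of 13.

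Immediate early genes, transcription factors and phosphatases switched on within minutes of signalling, had 5 higher and 2 lower calls among 25. Myc had 18.6 and 16.8 CPM and 54.8 and 41.6 CPM in untreated and DI-treated wild type and 12.9 and 13.1 CPM and 30.0 and 31.1 CPM in the knockout (average log2 fold change 1.34 ± 0.18 (SE), adjusted p = 0.00184). Dusp1, which inactivates MAP kinases, rose by 1.34 and 1.18 in the 2 genotypes (average 1.26 ± 0.17 (SE), adjusted p = 0.00197). Fosl1 (3.84), Maff and Egr2 were the other higher members, and the higher count was 5 or 6 in every fit without 1 library. Nr4a1 (-1.90) and Klf2 (-0.97), both repressors of macrophage inflammation, were lower, and the lower count was 1 without untreated wild-type replicate 1 or DI-treated wild-type replicate 2, and 4 without DI-treated wild-type replicate 1.

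Inflammatory genes moved in both directions, with 4 higher and 4 lower of 28 tested. Cxcl2, a neutrophil attractant, had 37.4 and 52.4 CPM in untreated and 91.4 and 114 CPM in DI-treated wild type, and 63.7 and 31.8 CPM and 294 and 207 CPM in the knockout (average log2 fold change 1.79 ± 0.30 (SE), adjusted p = 0.00688). Cxcl3 rose by 4.07, the cytokine Osm by 1.31 (adjusted p = 0.00611), and Ptgs2, the inducible cyclooxygenase, by 2.58 in wild type and 1.02 in the knockout. The lower members were all CC chemokines, which attract monocytes and other leukocytes. Ccl12 had log2 fold changes of -2.46 in wild type and -1.05 in the knockout (average -1.72 ± 0.27 (SE), adjusted p = 0.00431). Averages for Ccl7, Ccl6 and Ccl9 were -1.24, -0.78 and -0.68. The 4 higher calls were 4 or 5 in every fit without 1 library, while the lower calls were 1 without either untreated wild-type replicate or DI-treated wild-type replicate 2, and 2 without DI-treated wild-type replicate 1, untreated knockout replicate 1 or DI-treated knockout replicate 1.

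Nfkbiz, which encodes IκBζ, a coactivator of secondary NF-κB targets, went from 73.9 and 84.3 CPM to 21.8 and 16.3 CPM in wild type and from 166 and 158 CPM to 93.8 and 115 CPM in the knockout. The average log2 fold change was -1.33 ± 0.27 (SE), adjusted p = 0.0176, and the drop was smaller in the knockout (-0.63) than in wild type (-2.06), with a difference of 1.43 (95% interval 0.72 to 2.14, adjusted p = 0.0233). Its call on average was lost without either DI-treated wild-type replicate (adjusted p = 0.0553 and 0.0723). Among 17 NF-κB feedback genes, Ier3 (1.05, adjusted p = 0.00688), Traf1 (0.94) and Nfkb2 (0.81) were higher and Nfkbiz lower, and the higher count was 1 without untreated wild-type replicate 1, untreated knockout replicate 1 or DI-treated knockout replicate 2. Acod1, the itaconate-producing enzyme, was not called on average (-0.24 ± 0.35 (SE), adjusted p = 0.756), with 0.72 in wild type and -1.23 in the knockout. Keap1 had an average of 0.46 (adjusted p = 0.292) and Nfe2l2 itself 0.40 (adjusted p = 0.410). Il6 had 0 to 5 counts in each library and was not tested.

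Interferon-stimulated genes held the most shared losses of any list: of 54 tested members 27 were called lower and 0 higher, and all 27 were shared, against 4.21% of all genes. The list's median log2 fold change was -0.88 on average, -1.10 in wild type and -0.88 in the knockout. In 36 of the 54 the DI libraries lay below the untreated libraries in each genotype, against 11% of all genes. These genes encode antiviral and antibacterial effectors induced downstream of interferon receptors, and resting macrophages keep a low tone of them through autocrine interferon β.

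Ifit3, which binds and limits foreign RNA with its partners, had 422 and 378 CPM in untreated and 160.1 and 198 CPM in DI-treated wild type. In the knockout it had 447 and 427 CPM and 119 and 143 CPM, and its log2 fold change was -1.45 ± 0.20 (SE), adjusted p = 0.00199. Gbp7, a guanylate-binding GTPase that acts on pathogen vacuoles, went from 205 and 285 CPM to 103 and 100.3 CPM and from 293 and 263 CPM to 96.9 and 93.4 CPM (average -1.41 ± 0.19 (SE), adjusted p = 0.00171). Ifit1bl1 had log2 fold changes of -3.19 in wild type and -2.68 in the knockout (average -2.93 ± 0.22 (SE), adjusted p = 8.33e-05). Iigp1, an immunity-related GTPase, had 181 and 217 CPM and 34.7 and 32.6 CPM in wild type and 250.2 and 257 CPM and 67.8 and 64.0 CPM in the knockout (average -2.25 ± 0.19 (SE), adjusted p = 0.000177). Members of the Ifit, Gbp, immunity-related GTPase and Ifi200 families have close copies, so reads could be divided among them.

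Further shared members were the chemokine Cxcl11 (-2.46), the antiviral Rsad2 (-1.27) and Mx1 (-1.58), Ifit2 (-1.79), Phf11b (-1.29), Ifi204 (-1.16), Gbp2 (-1.35) and Ifi44 (-1.54). In 15 of the 27 the call held in every fit without 1 library, these 8 and Ifit3, Gbp7, Ifit1bl1 and Iigp1 among them. The list count was 17 without untreated knockout replicate 1 and 18 to 26 without any other library. Irf7 and Irf9, transcription factors of the pathway, did not pass the test, with Irf7 at -0.34 (adjusted p = 0.515) and Irf9 at -0.31 (adjusted p = 0.349).

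The interferon-stimulated response element, searched as GAAA, any 2 bases and GAAA again, was present in 4.16% of all promoters, in 47 of 372 shared lower promoters (12.6%) and in 5 of 201 shared higher promoters (2.49%). It was in 16 of the 20 shared interferon-stimulated genes with a promoter in the reference (80%) and in 29 of 41 on the whole list (70.7%). Ifit3 and Gbp7 are printed because both fell in each genotype and carry the element close to the start, Ifit3 on the plus strand of chr19:34583279-34583528 and Gbp7 on the plus strand of chr3:142530086-142530335 (GRCm38.p6), with the element in capitals.
Ifit3: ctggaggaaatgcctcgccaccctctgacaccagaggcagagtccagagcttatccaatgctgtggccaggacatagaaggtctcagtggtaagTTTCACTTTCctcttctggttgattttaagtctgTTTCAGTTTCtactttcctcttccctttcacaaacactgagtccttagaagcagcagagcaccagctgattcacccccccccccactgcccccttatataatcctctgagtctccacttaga
Gbp7: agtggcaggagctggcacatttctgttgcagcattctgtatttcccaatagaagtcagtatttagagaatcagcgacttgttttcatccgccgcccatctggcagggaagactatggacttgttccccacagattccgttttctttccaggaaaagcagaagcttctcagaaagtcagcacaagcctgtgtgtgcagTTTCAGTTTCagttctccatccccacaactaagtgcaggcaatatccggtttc
Ifit3 holds it at bases -156 to -147 and -122 to -113, and Gbp7 at bases -53 to -44, each as the reverse complement of the searched letters.

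The macrophage identity list, receptors and factors of macrophages and their monocyte precursors, had 0 higher and 10 lower calls of 27 tested, all shared. Its median log2 fold change was -0.33 on average, -0.24 in wild type and -0.57 in the knockout. Tested in each genotype alone, 1 member was higher and 11 lower in wild type, and 0 and 10 in the knockout. Ccr2, the receptor that brings monocytes into tissue, had 307 and 454 CPM in untreated and 88.9 and 66.0 CPM in DI-treated wild type. Its knockout levels were 516 and 567 CPM and 214 and 191 CPM, and the average log2 fold change was -1.86 ± 0.23 (SE), adjusted p = 0.00164. Cx3cr1, the fractalkine receptor, had 14.2 and 14.3 CPM and 0.314 and 1.86 CPM in wild type and 25.7 and 27.5 CPM and 7.04 and 10.54 CPM in the knockout (average -2.38 ± 0.41 (SE), adjusted p = 0.00851). Tlr7, like Tlr8 an endosomal RNA sensor, had log2 fold changes of -2.41 in wild type and -1.40 in the knockout (average -1.90 ± 0.24 (SE), adjusted p = 0.00168). The co-receptor Cd14 (-1.25), the efferocytosis kinase Axl (-1.14) and the transcription factor Maf (-1.70) were lower as well. Cx3cr1, Tlr7, Tlr8, Ccr2, Maf, Cd14 and Axl were called in all 8 fits without 1 library, Fcgr1 in 3 and Itgam in 1. In wild type the summed level of the 8 macrophage markers overlapped, at 4713 and 4618 CPM untreated and 4227 and 4930 CPM with DI. In the knockout the sum was lower with DI, at 4041 and 4500 CPM against 5473 and 5629 CPM untreated. Fcgr1 and Itgam were the 2 of these 8 markers that were called. No tested marker of neutrophils, dendritic cells, lymphocytes, mast cells or stroma was called.

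**Figure D5:**
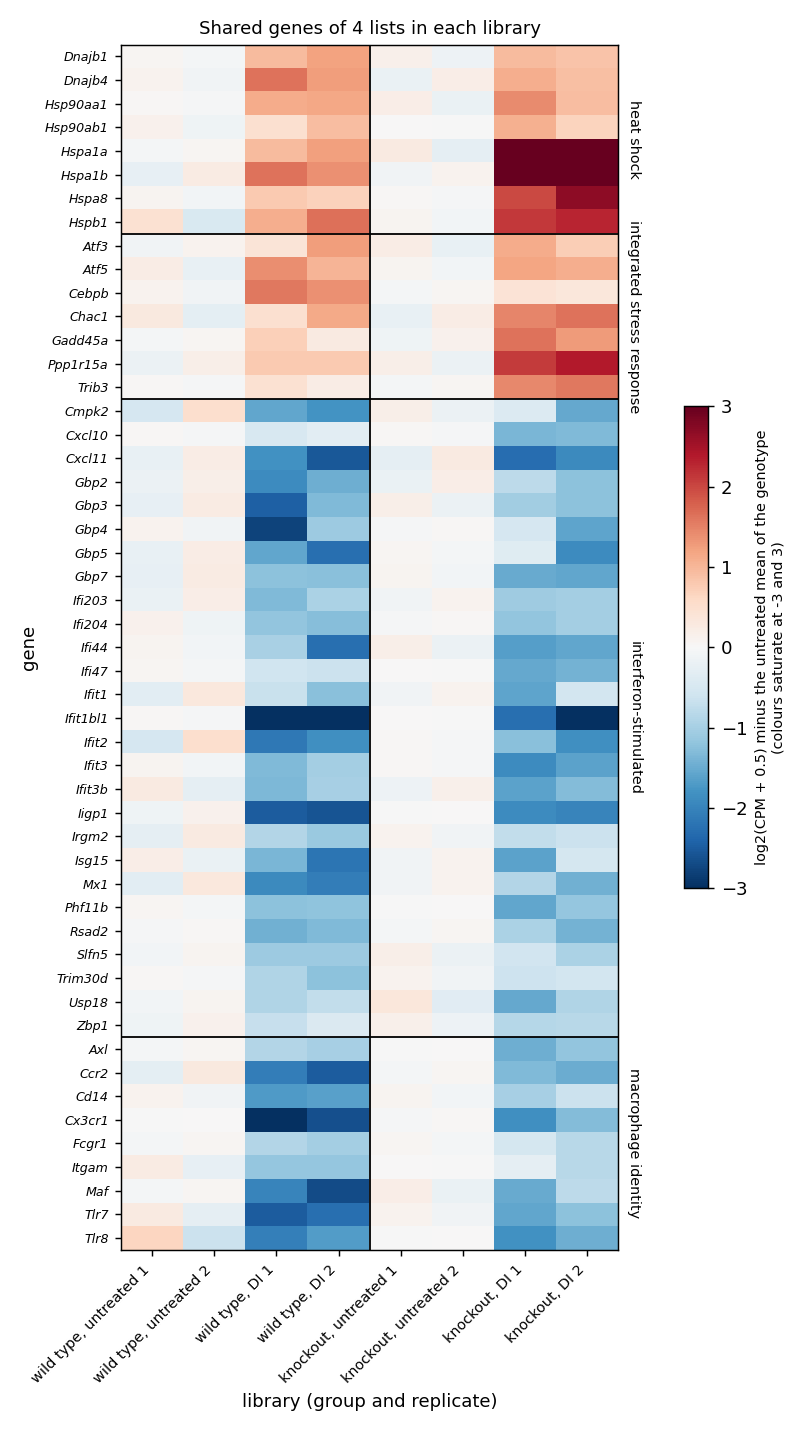
Heat map of 51 shared genes from the heat shock (8), integrated stress response (7), interferon-stimulated (27) and macrophage identity (9) lists, 1 row a gene and 1 column a library. Colour is log2(CPM + 0.5) minus the mean of the same genotype's untreated libraries, limited to 3 either way. The shared rule fixes the sign of the DI columns in both genotypes. Heat shock and stress response rows are above 0 there, and interferon and identity rows below 0. Values in the DI columns ran from -4.18 to 5.85, while untreated columns deviated by at most 0.64.

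Antigen presentation genes followed on the lower side. MHC class I genes and their processing partners had 6 lower and 0 higher of 20. H2-M3, which presents formylated peptides, had log2 fold changes of -1.08 in wild type and -0.95 in the knockout (average -1.01 ± 0.17 (SE), adjusted p = 0.00611), H2-T22 -1.11 and -1.20 (adjusted p = 0.00578) and the immunoproteasome subunit Psmb9 -0.83 and -1.13 (adjusted p = 0.0153). H2-Q6, whose reads could be divided with its close copy H2-Q7, fell more in the knockout (-2.27 against -0.58, difference -1.69, adjusted p = 0.00934). The class I count was 3 without DI-treated wild-type replicate 2 or DI-treated knockout replicate 2. Class II had 1 lower of 8, which 7 of 8 fits without 1 library lost. Complement had 2 lower of 12, the C1q chains C1qa (-0.85, adjusted p = 0.0229) and C1qc (-0.79, adjusted p = 0.0362), and 0 in 5 of those fits.

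Genes of lipases and lipid droplets were mostly on the higher side among those called, with 4 higher and 1 lower of 16. Hilpda, an inhibitor of the lipase ATGL, had 22.98 and 23.4 CPM in untreated and 96.6 and 84.0 CPM in DI-treated wild type and 11.4 and 16.1 CPM and 34.4 and 25.4 CPM in the knockout (average log2 fold change 1.55 ± 0.23 (SE), adjusted p = 0.00299). The droplet coat protein Plin2 rose by 0.87 and 1.02 (average 0.94 ± 0.18 (SE), adjusted p = 0.0109), the fatty acid binding protein Fabp4 by 1.23 and 0.91 (average 1.07 ± 0.19 (SE), adjusted p = 0.00616), and the lipase Mgll by 1.18 on average. The higher count was 3 to 5 in every fit without 1 library, and the lower member was Lipg. Among 29 lysosome and autophagy genes 3 were called higher. Sqstm1, the autophagy receptor p62 that also binds Keap1, had log2 fold changes of 2.13 and 1.22 (average 1.67 ± 0.23 (SE), adjusted p = 0.00240), and was called in all 8 such fits, while Atp6v1h lost the call in 7 and Gabarapl1 in 6 of them.

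Remaining lists had few calls of the average effect. Among 33 cell cycle genes only Kif11, a mitotic kinesin, was called, with log2 fold changes of -2.51 in wild type and -0.82 in the knockout (average -1.59 ± 0.33 (SE), adjusted p = 0.0184). Neither fit without 1 of the DI-treated wild-type libraries called it. Tested in each genotype alone, 12 of the 33 cell cycle genes were lower in wild type and 0 in the knockout. The interaction was called for 11 of them, against 7.55% of all tested genes. Glycolysis had 1 higher of 19 (the lactate exporter Slc16a3, 1.08), with 0 without either untreated wild-type replicate, 2 without untreated knockout replicate 1 and 5 without DI-treated knockout replicate 1. In each genotype alone, 9 glycolysis genes were higher in wild type and 1 in the knockout. Sterol genes had 1 higher (Mylip, 1.03) and 1 lower (Nr1h3, -0.87) of 28, with 0 of each without either untreated wild-type replicate or DI-treated wild-type replicate 2, and no lower call without DI-treated wild-type replicate 1. Targets of p53 had 2 higher (Gdf15 and Mdm2) and 2 lower (Sesn1, -1.33, and Bbc3, -0.76) of 20, and Mdm2 lost the call in 7 and Bbc3 in 6 of the 8 fits without 1 library. Without DI-treated wild-type replicate 2 no p53 target was called lower.

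An average effect leaves out genes called in opposite directions in the genotypes, 64 of the tested genes (0.578%), none of them called on average. Of these, 58 were lower in wild type and higher in the knockout, and 6 the reverse. Ddit3, the stress factor CHOP, had 390.2 and 321 CPM in untreated and 146 and 159 CPM in DI-treated wild type, and 206 and 143 CPM and 623 and 458 CPM in the knockout. It fell in wild type (-1.22) and rose in the knockout (1.63), so it is the 1 integrated stress response gene called in opposite directions, while 7 others were shared higher. The count of 64 was 0 without untreated knockout replicate 2, 2 without untreated knockout replicate 1, 20 without DI-treated replicate 1 of either genotype, 24 without untreated wild-type replicate 2 and 38 without untreated wild-type replicate 1. DI libraries of the genotypes differed in a trend with A-rich coding sequence. Among the 210 genes whose most A-rich 15-base coding window held 13 A, the median log2 deviation of DI libraries was -0.36 and -0.15 in wild type and 0.22 and 0.20 in the knockout. Untreated libraries deviated by -0.01 and 0.17 in wild type, so that replicate 2 stood apart, and by -0.04 and -0.08 in the knockout. With that trend removed from every library, 30 genes were called in opposite directions, while 327 genes were shared higher and 516 shared lower, 76 and 170 were called in both genotypes, and 60 shared genes had a called interaction.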

How the data were processed

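RNA-seq libraries of bone marrow-derived macrophages were made with an oligo-dT primer that carries a barcode, were strand-specific and had no molecular identifiers, per the labels' protocols. The authors deposited a table of raw read counts per gene and library. The submitters' processing notes name STAR, HTSeq, DESeq2 and the build mm10, without versions or roles. An annotation release was not given in the sources used here. Counts carry no correction for PCR copies, so intervals cover only the spread between libraries.

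Symbols were taken from the reference table for 21745 of 22165 genes, and 420 genes without one held 0.129% of counts. Counts were analysed with edgeR 4.0.16 in R 4.3.3 (TMM normalization, genes kept by filterByExpr with a minimum count of 10, robust quasi-likelihood test, Benjamini-Hochberg adjustment over 11079 genes). CPM values use TMM library sizes, with total counts of 5554288 to 15680671 per library. A second fit with 1 mean per group gave the effect in each genotype and their difference with its 95% interval. Standard errors come from the fit's information matrix and quasi-dispersion. On simulated counts of 10926 genes the additive test called 26% of 1.5-fold, 94% of 2-fold and 100% of 4-fold changes (50 genes each), and 4 unchanged genes. The simulated DI effects were equal in both genotypes and the spread followed expression level alone, so these shares may overstate those in the data.

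Genes were named by rule: among shared genes with a proper symbol (no Gm number, Rik or bare ID) whose higher group averaged 10 CPM or more in each genotype, the 12 higher and 12 lower with the largest smaller effect of the 2 genotypes, up to 4 shared members per list with the lowest p, the series' own genes, and the 6 opposite genes with the lowest p of the difference, among which the proper-symbol limit was applied too and left out A530064D06Rik, the lowest of all. Further list members are examples chosen after their values were seen. The members and lists were chosen with earlier results of these data known. Alternatives were DESeq2 1.42.0, its size factors, no count filter, other designs, and leaving out each library in turn. Some genes that the rule names are not reported here.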

Additional observations from a re-analysis of the deposited data

Results flagged for a closer look

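For 18 of the named genes the DI effect itself differed between the genotypes (edgeR interaction of genotype and treatment, adjusted over all tested genes), which is what singles them out here. Each difference is knockout minus wild type on the log2 scale, from 2 libraries a group.

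Among shared higher genes, Gclm differed by -3.69 (adjusted p = 0.000220) and Gsr by -2.21 (adjusted p = 0.00569), both glutathione genes that rose more in wild type. Ptgs2 differed by -1.56 (adjusted p = 0.0230), also with the larger rise in wild type. Hspa8 differed by 1.62 (adjusted p = 0.0183) and Ppp1r15a by 1.47 (adjusted p = 0.0217), and both rose more in the knockout.

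Among shared lower genes, Tnfsf8 differed by 3.25 (adjusted p = 0.00885), Lipg by 2.15 (adjusted p = 0.0413), Kif11 by 1.68 (adjusted p = 0.0385), Nfkbiz by 1.43 (adjusted p = 0.0233) and Ccl12 by 1.41 (adjusted p = 0.0246), all with the larger loss in wild type. H2-Q6 differed by -1.69 (adjusted p = 0.00934) and lost more in the knockout.

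The other 7 had no shared effect. Acod1 differed by -1.96 (adjusted p = 0.00713), from 0.72 in wild type to -1.23 in the knockout. Of the 64 genes called in opposite directions, the one with the lowest p of the difference was A530064D06Rik, a Rik clone name that the naming rule as applied passed over. It was higher in wild type (2.54) and lower in the knockout (-1.61), a difference of -4.15 (adjusted p = 0.000220). The next 6 by that p were lower in wild type and higher in the knockout. Sdccag8, a centrosome protein, differed by 2.95 (-2.11 to 0.84), the phosphoprotein Anp32a by 3.38 (-1.65 to 1.73) and the vesicle SNARE Vti1b by 3.07 (-1.79 to 1.28). Ddit3 differed by 2.85, the helicase Dhx40 by 2.72 (-0.81 to 1.91) and the replication checkpoint adaptor Clspn by 3.40 (-2.13 to 1.27). Over these 6, the adjusted p of the difference ran from 0.000524 to 0.00139.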

How the results depend on the processing

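Over 82 named genes, 1126 alternative values had the same outcome as the main fit, called or not called. Another 184 lost the call, 2 gained it, and 0 changed sign where either fit called the gene. A sign change in a gene called in neither fit was counted as the same outcome. Acod1, for example, ran from -0.59 to 0.06 over the fits without 1 library. Of 73 named shared genes, 48 stayed called without any 1 library. Additive calls were 506 higher with DESeq2, 618 higher and 738 lower with no count filter, 750 and 946 with the averaged contrast of the fit with 1 mean per group, 82 and 192 with no genotype term, and 71 and 156 at an adjusted p under 0.01. Shared genes were 428 higher with DESeq2, 394 higher with no filter, 523 and 749 with the averaged contrast, 82 and 192 with no genotype term, and 69 and 156 at 0.01. Genes called in both genotypes were 140 and 261 with no filter and 12 and 46 at 0.01. Opposite genes were 165 with no filter, 30 with the A-rich trend removed and 7 at 0.01, and interaction calls among shared genes 99 with DESeq2, 119 with no filter and 3 at 0.01. Leaving out untreated knockout replicate 1 and untreated wild-type replicate 2 together, which like the A-rich trend was added as a setting once values were known, gave 59 and 142 additive, 57 and 142 shared, 3 and 8 in both, 0 opposite and 3 interaction calls. Without 1 library, additive calls ranged from 120 to 262 higher and 209 to 396 lower, shared genes from 118 to 251 and 209 to 395, genes called in both from 9 to 74 and 42 to 138, opposite genes from 0 to 68 and interaction calls from 16 to 50. The causes were not tested.

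With the replicate number as a block, 201 additive genes were higher and 368 lower, 191 and 368 shared, 70 and 168 called in both genotypes, 63 opposite, and 42 interaction calls remained among shared genes. The numbers were not taken as pairing the libraries, because the labels do not say that a number marks a shared animal or batch. Deviations of same-numbered libraries correlated at -0.0799 to 0.156 over the 6 pairs of groups. At the depth and number of these libraries, 26% of simulated 1.5-fold changes were called, and depth alone was not varied. The simulation held no difference between genotypes and no gene-specific spread, and its changes were placed in genes averaging 10 CPM or more.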

Other observations

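Several receptor families had members among the shared lower genes. They were picked after their values were seen and carry no test as families, and of all tested genes 2.34% were shared higher and 4.2% shared lower. Of 10 tested Toll-like receptors, 6 were shared lower and each stayed called without any 1 library: Tlr7 (-1.90), Tlr8 (-1.81), Tlr9 (-1.69), Tlr2 (-1.60), Tlr1 (-1.50) and Tlr3 (-1.49), as average log2 fold changes. Tlr9, the endosomal sensor of CpG DNA, had 232 and 227 CPM in untreated and 68.2 and 55.8 CPM in DI-treated wild type and 322 and 317 CPM and 113 and 113 CPM in the knockout. Tlr4, the lipopolysaccharide receptor, had -0.04 ± 0.19 (SE), with 67.9 and 78.4 CPM and 65.2 and 72.6 CPM in wild type and 67.5 and 60.7 CPM and 53.7 and 75.2 CPM in the knockout. Of 7 tested P2Y nucleotide receptors, 5 were lower, led by P2ry12 (-3.20) and P2ry13 (-2.48), and P2ry2 was higher (1.17). P2ry12 went from 3.23 and 3.30 CPM to 0.471 and 0.0932 CPM in wild type and from 5.42 and 5.75 CPM to 0.961 and 0.507 CPM in the knockout.

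Intracellular DNA sensors of the PYHIN family were lower in 9 of 12 tested, 8 of them in every fit without 1 library, and their close copies could divide reads. MS4A membrane proteins were lower in 4 of 10 and Fcγ receptors in 3 of 4, where Fcgr3 was the exception (0.18). Of 18 dual-specificity phosphatases, which include inactivators of MAP kinases, 3 were shared higher, Dusp1 (1.26), Dusp5 (1.40) and Dusp4 (0.95), but the family's median was 0.03 and 9 of the 18 were below 0. Serpins had 3 shared higher of 11, with 5 below 0, and both tested metallothioneins were shared higher.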
